A study of Mus musculus with 21 samples.

Results

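The glutathione peroxidases Gpx1, Gpx3 and Gpx4, catalase (Cat), the superoxide dismutases Sod1, Sod2 and Sod3, peroxiredoxin 5 (Prdx5) and the metallothioneins Mt1 and Mt2 were examined in mouse PMNs and TECs. These 10 genes were chosen by their known function, with earlier results of these data known, out of 50406 autosomal genes. Counts of them called, set beside the share over all genes, are therefore a description and not an independent test. All 10 had enough reads to be among the 31769 genes tested over all libraries. In the study, remote ischemic preconditioning (RIPC), given as 3 inflations of a hind-limb cuff of 5 minutes each, preceded renal ischemia-reperfusion injury (IRI), in which both renal pedicles were clamped for 32 minutes. RNA-Seq was run on polymorphonuclear neutrophils (PMNs) taken from blood and on renal tubular epithelial cells (TECs) taken from kidney 24 hours after surgery, and 21 libraries were analysed. All groups were wild-type mice, and the study's methods give male C57BL/6 animals of 8 to 12 weeks. The PMN groups were sham control (2 libraries), sham RIPC (3), IRI control (2) and IRI RIPC (3). The TEC groups were sham control (3), sham RIPC (3), IRI control (2) and IRI RIPC (3). Sham animals had the operation without clamps, and control animals had no RIPC. TECs were isolated in the study with beads against prominin-1, so they are the tubular cells that carry this protein. The study describes its libraries as biological replicates, but the labels do not tie libraries to animals, and the smaller groups hold fewer libraries here than the study describes. The p-values measure the spread between libraries.

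Superoxide dismutases turn superoxide into hydrogen peroxide, with Sod1 in the cytosol, Sod2 in the mitochondrial matrix and Sod3 outside the cell. Catalase in peroxisomes and the glutathione peroxidases and peroxiredoxins then remove the peroxide. Gpx1 is the common intracellular glutathione peroxidase, Gpx3 is secreted and the kidney tubule is its known main source in plasma, and Gpx4 reduces lipid peroxides in membranes. Metallothioneins are small cysteine-rich proteins that bind zinc and copper and are known to be induced by metals and stress, and ischemia of the kidney is known for a burst of oxidants on reperfusion.

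Gpx1, Gpx3 and Gpx4 are selenoproteins, in which a TGA codon, otherwise a stop, encodes the catalytic selenocysteine. The stretch of 57 bases around that codon is shown for each, 5′ to 3′ on the coding strand, from the annotated coding sequence on GRCm38, with the selenocysteine codon in capitals. It was codon 47 of 201 in Gpx1 (chr9:108338903-108340343, plus strand), codon 73 of 226 in Gpx3 (chr11:54902453-54910377, plus strand) and codon 73 of 197 in Gpx4 (chr10:80047166-80056439, plus strand).
Gpx1: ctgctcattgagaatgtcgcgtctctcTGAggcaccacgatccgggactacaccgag
Gpx3: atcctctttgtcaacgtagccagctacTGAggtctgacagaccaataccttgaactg
Gpx4: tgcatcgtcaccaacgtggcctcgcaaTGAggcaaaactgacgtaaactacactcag

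Mt1 (chr8:94179082-94180327) and Mt2 (chr8:94172664-94173568) lie beside each other on the plus strand. Their coding sequences are shown because the results below turn on telling the metallothioneins apart. Both have 186 bases, 61 codons and 20 cysteine codons, and they are identical at 79.6% of positions. Capitals mark the 38 bases at which they differ, and the longest run without a difference is 20 bases, shorter than the reads of 50 bases.
Mt1: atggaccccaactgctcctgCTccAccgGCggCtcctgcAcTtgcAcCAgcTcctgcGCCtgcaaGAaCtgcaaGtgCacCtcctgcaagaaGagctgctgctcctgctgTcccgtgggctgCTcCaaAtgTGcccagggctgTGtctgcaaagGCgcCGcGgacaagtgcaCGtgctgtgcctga
Mt2: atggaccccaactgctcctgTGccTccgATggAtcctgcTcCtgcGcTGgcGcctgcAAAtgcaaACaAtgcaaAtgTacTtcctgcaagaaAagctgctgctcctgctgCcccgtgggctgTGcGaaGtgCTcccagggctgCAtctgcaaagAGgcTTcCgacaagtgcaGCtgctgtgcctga

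The 250 bases before the RefSeq start of Mt2 (chr8:94172368-94172617, GRCm38.p6, plus strand) are shown because Mt2 had, of the 10 genes, the widest relative range of levels among TEC libraries. Capitals mark matches to the core of the metal response element, searched as TGCACNC and TGCGCNC on both strands. The window held 3 such cores, and 1.26% of the 32851 promoters of the same length held 3 or more. The matching window of Mt1 held 1, and 21.41% of promoters held 1 or more. Each window depends on the start used, and bases beyond it were not searched. The counts therefore do not rank the promoters of Mt1 and Mt2 by their metal response elements. A match of letters is a description and not a site of binding.
Mt2 promoter: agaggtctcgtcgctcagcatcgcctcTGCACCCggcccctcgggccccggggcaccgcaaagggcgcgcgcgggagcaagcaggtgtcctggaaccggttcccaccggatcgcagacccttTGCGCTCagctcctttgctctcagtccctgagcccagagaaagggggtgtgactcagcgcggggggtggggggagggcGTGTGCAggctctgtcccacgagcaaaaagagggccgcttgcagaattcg

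The libraries held 20881334 to 51624602 reads. All 8 neutrophil markers had more than 3 reads in every PMN library, and their summed level was 5850 to 31599 normalized counts in PMNs against at most 90.2 in TECs. All 7 macrophage and monocyte markers were also called higher in PMNs, with a summed level of 874 to 8757 against at most 33.0 in TECs, and their part in the PMN levels was not tested. Normalized counts here are CPM, counts scaled to the depth of a library, after TMM scaling over the 21 libraries, and 3 reads, the most that a count of 0 allows, correspond to 0.0748 to 0.156 of them. The summed files of a library are not independent reads, as described below, so these limits may be too low. In all, 3 libraries stood apart and bear on the values below. TEC sham control replicate 1 had the injury gene Havcr1, which encodes KIM-1, at 78.9, where the other sham TEC libraries had at most 1.02. TEC IRI RIPC replicate 3 had Havcr1 at 78.4 against 395 to 716 in the other IRI libraries of TECs, but it had the injury keratin Krt20 at 1458. PMN sham control replicate 2 had a summed level of 8 proximal tubule markers of 3322, against 208 to 1303 in the other PMN libraries, and 13.04% of its reads were mitochondrial, against 1.43% to 5.81% in the other PMN libraries and 13.07% to 29.12% in TECs. All 8 proximal tubule markers had more than 3 reads in every library labelled PMN. In bulk RNA, fewer cells of a type and less RNA per cell cannot be told apart.

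**Figure D1:**
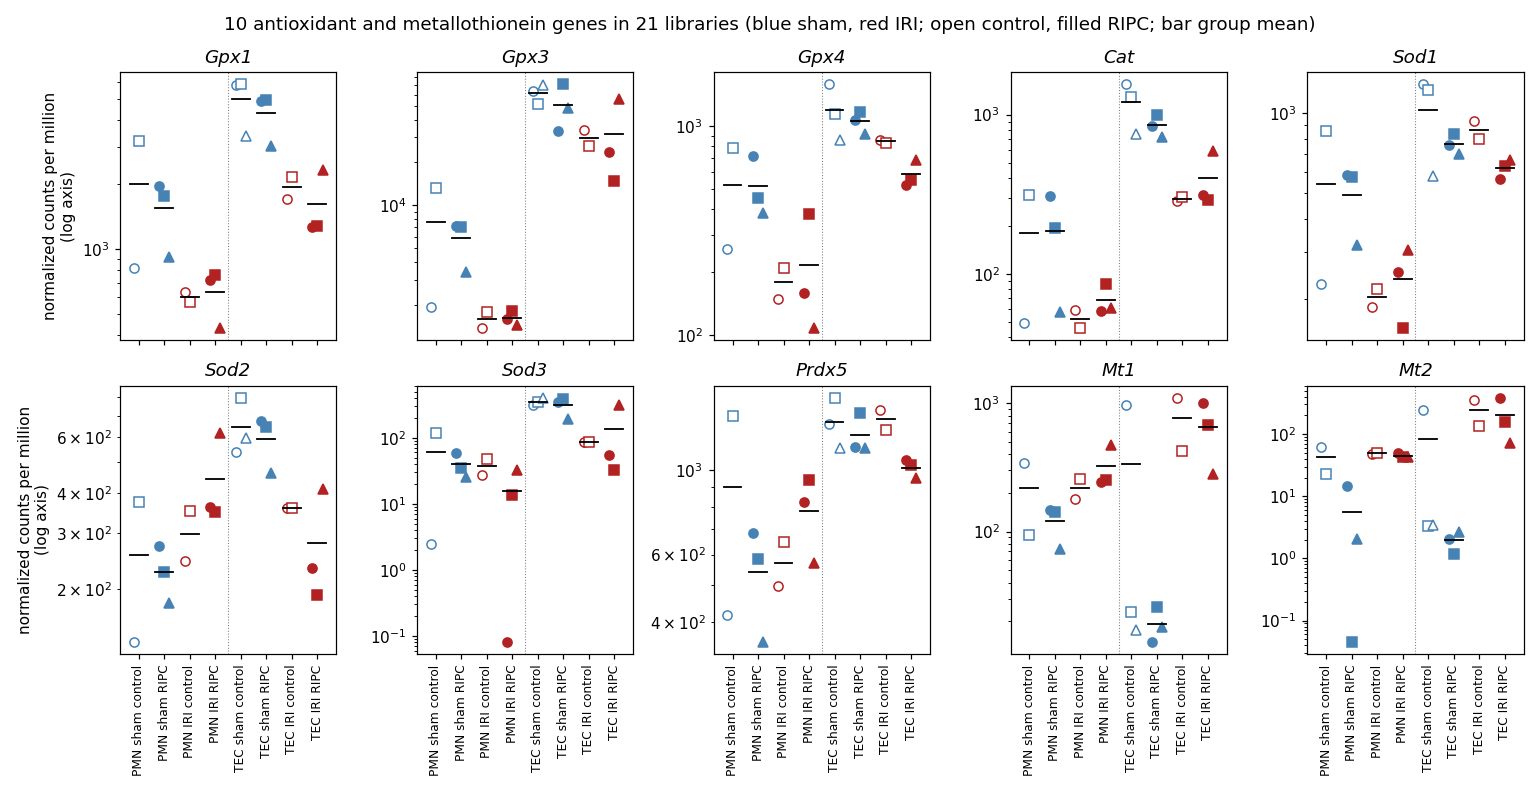
Levels of the 10 genes in the 21 libraries, 1 panel a gene, in normalized counts (CPM) on a log axis against the 8 groups. Circles, squares and triangles are replicates 1, 2 and 3, blue is sham and red IRI, open is control and filled RIPC, and bars are group means. The 11 TEC libraries of Gpx3 sit between 14890 and 71150, all above the PMN libraries, and for Mt1 and Mt2 one open blue circle, TEC sham control replicate 1, sits among the red TEC points.

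Levels of different genes were compared per transcript length, in TPM (transcripts scaled to a fixed total per library) computed here from the estimated counts and effective lengths. In sham TECs, Gpx3 led with a median of 33891 TPM (range 20745 to 44024, n = 6), followed by Gpx1 at 7164 TPM (4988 to 11907), with no overlap between them or with any gene below. Prdx5, Sod1 and Gpx4 came next, with medians of 1948, 1650 and 1541 TPM, and their ranges overlapped. Sod2 and Cat followed with medians of 614 and 278 TPM, and these ranges also overlapped, while Sod3, Mt1 and Mt2 came last with medians of 89.1, 59.3 and 8.97 TPM and overlapping ranges. In sham control replicate 1, Mt1 was at 1964 and Mt2 at 540 TPM, above the lowest libraries of Prdx5 (1584) and Sod2 (447). In the other sham TEC libraries Mt1 was at 39.6 to 80.2 and Mt2 at 3.30 to 11.5 TPM, without overlap. Gpx3 alone took 3.60% to 7.46% of the autosomal reads of a sham TEC library and ranked first of all autosomal genes in all 6 of them. In the 5 IRI libraries of TECs it took 1.99% to 4.44% and ranked between 3 and 6.

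In TECs after IRI, Gpx3 again led with a median of 13033 TPM (8499 to 19334, n = 5), without overlap with Gpx1 at 2240 TPM. Mt1 came after Gpx1 with a median of 1825 TPM (443 to 2699), and Gpx1, Mt1, Prdx5, Sod1, Gpx4, Mt2 and Sod2 each overlapped with the next in that order. Cat at 82.7 TPM and Sod3 at 13.6 TPM were lowest, each without overlap with its neighbour. In sham PMNs, the order by median ran from Gpx3 at 3158 TPM (920 to 6580, n = 5) and Gpx1 at 2283 TPM to Sod3 at 5.94 TPM, and only Sod2 and Cat did not overlap as neighbours. The PMN libraries also held proximal tubule RNA, and its part in the PMN orders was not tested. In PMNs after IRI, Prdx5 at 911 TPM, Gpx1 at 765 TPM and Gpx3 at 639 TPM led with overlapping ranges, and Cat at 13.9 TPM and Sod3 at 4.23 TPM were again last.

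PMNs and TECs were compared first, averaged over the 4 conditions of surgery and preconditioning. Of the 10 genes, 7 were lower in PMNs and none was higher by edgeR's quasi-likelihood test with Benjamini-Hochberg adjustment, where 6.87% of the 31769 genes tested differed, 2.91% higher and 3.95% lower in PMNs. Gpx3 differed most, 12.7-fold, and Cat differed 5.64-fold, while Sod2 and the metallothioneins did not pass the test. The median log2 difference over the 10 genes was -1.36, against -0.02 over all genes tested. Genes with more reads were called more often. In a fit of only the 4319 genes with at least 10 counts in every library, 1191 were called, 783 of them lower in PMNs.

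Gpx3 was measured in PMNs at 1928 and 13255 in sham control, 7186, 7071 and 3414 in sham RIPC, 1368 and 1783 in IRI control and 1582, 1812 and 1441 normalized counts in IRI RIPC. In TECs it was at 63505, 51884 and 70568 in sham control, 33192, 71150 and 48313 in sham RIPC, 33573 and 26252 in IRI control and 23543, 14890 and 56046 in IRI RIPC. The highest PMN library, sham control replicate 2, stayed below the lowest TEC library, and Gpx3 was the only member without overlap between the cell types, as were 1.1% of all genes tested. The log2 difference was -3.67 ± 0.32 (SE, 10 and 11 libraries, edgeR adjusted p = 3.89e-07), and it stayed past the threshold when any 1 of the 21 libraries was left out.

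Gpx1 ranged from 430 to 3182 normalized counts in PMNs (median 789) and from 1266 to 5859 in TECs (median 3029). It was 2.75-fold lower in PMNs (log2 -1.46 ± 0.26, edgeR adjusted p = 0.00118), and the levels overlapped only through sham PMN libraries. Gpx4 ranged from 108 to 783 in PMNs and from 525 to 1590 in TECs, with a log2 difference of -1.48 ± 0.29 (edgeR adjusted p = 0.00266). As much as 34.74% of the 50-base stretches of Gpx4 also occur in its processed copy Gpx4-ps2, to which 341 to 3954 reads of a library were assigned, so the Gpx4 level carries that uncertainty. No such stretch was shared for Gpx1, Gpx3, Cat, Sod3 or Mt1.

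Cat (chr2:103453849-103485160, minus strand) ranged from 45.5 to 311 normalized counts in PMNs (median 60.1) and from 287 to 1556 in TECs (median 718), and only the top PMN libraries overlapped with the IRI TECs. Its log2 difference was -2.50 ± 0.37 (edgeR adjusted p = 0.000166). Sod1 (chr16:90220754-90226329, plus strand) ranged from 155 to 857 in PMNs and from 564 to 1288 in TECs (log2 -1.26 ± 0.28, edgeR adjusted p = 0.00685). Like Gpx3, the genes Gpx1, Gpx4, Cat and Sod1 passed the test in all 21 fits that left out 1 library.

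Sod3 (chr5:52363791-52371418, plus strand) and Prdx5 (chr19:6906697-6910106, minus strand) were also lower in PMNs, but closer to the threshold. Sod3 ranged from 0.0816, which is 2 reads and so at the limit of a count of 0, to 118 normalized counts in PMNs and from 32.5 to 404 in TECs (log2 -2.46 ± 0.70, edgeR adjusted p = 0.0374). That call was lost, with edgeR adjusted p between 0.0505 and 0.0806, when 1 of 8 libraries was left out, namely PMN sham RIPC 3, IRI control 1 or IRI RIPC 2, or TEC sham control 2 or 3, sham RIPC 1 or 2, or IRI RIPC 3. Prdx5, which encodes a peroxiredoxin of mitochondria, peroxisomes and cytosol, ranged from 354 to 1385 in PMNs and from 952 to 1548 in TECs (log2 -0.85 ± 0.24, edgeR adjusted p = 0.0378). Its call was lost, with edgeR adjusted p between 0.051 and 0.185, without 1 of 11 libraries, namely PMN sham control 1, sham RIPC 3, IRI control 1 or 2, IRI RIPC 1 or 3, or TEC sham control 1, sham RIPC 2, IRI control 1 or 2, or IRI RIPC 1. The annotation places Trmt112 over part of Prdx5 on the opposite strand, 15.54% of the 50-base stretches are shared with it, and the strand setting of the reads is not given in the sources used here.

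Sod2, Mt1 and Mt2 did not pass the test between the cell types. Sod2 had a log2 difference of -0.58 ± 0.27 (edgeR adjusted p = 0.27), Mt1 of -0.19 ± 0.54 (edgeR adjusted p = 1.0) and Mt2 of -1.01 ± 0.75 (edgeR adjusted p = 0.633). The sign for the metallothioneins rested on TEC sham control replicate 1, without which Mt1 was 0.82 and Mt2 0.16 higher in PMNs on the log2 scale, still short of the threshold.

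Since proximal tubule RNA was present in the PMN libraries, each PMN level was also expressed as a percent of the TEC mean after the same surgery. The 8 proximal tubule markers, summed, stood at 3.89% to 39.14% in the 10 PMN libraries (median 12.4%). Gpx3 stood at 3.42% to 23.49% and was below the percent of the markers in 10 of 10 PMN libraries. Gpx1, Gpx4, Sod1, Sod2, Prdx5 and Mt1 were above it in 10 of 10, Cat and Mt2 in 8 of 10 and Sod3 in 4 of 10. Cat stood at 4.77% to 30.17%, close to the markers. For the metallothioneins after sham surgery the TEC mean includes the high library, sham control replicate 1. The 6 distal tubule and collecting duct markers, summed, were at 119 to 5195 normalized counts in sham control PMNs and 265 to 1179 in sham control TECs. In PMNs and TECs they were at 282 to 714 and 160 to 643 in sham RIPC. They were at 175 to 307 and 178 to 609 in IRI control, and at 45.3 to 600 and 88.2 to 359 in IRI RIPC. Their median log2 difference was 0.81, PMNs minus TECs, with 1 of 6 called higher in PMNs. The part of proximal or distal tubular RNA in the PMN levels was not tested.

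**Figure D2:**
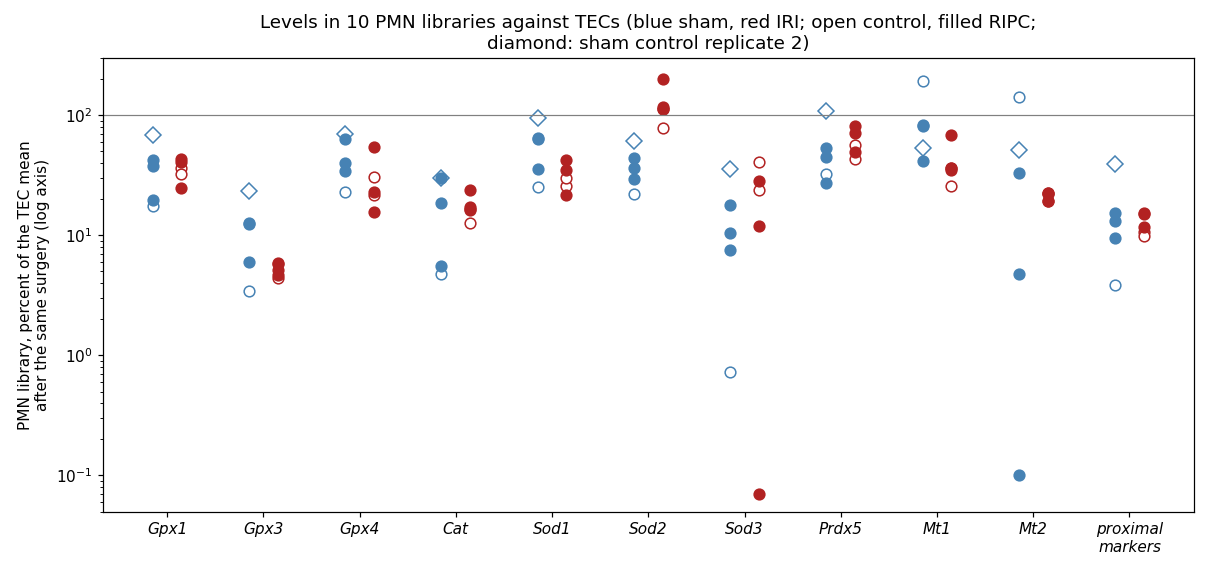
Each PMN library's level as a percent of the mean of the TEC libraries after the same surgery, on a log axis, for the 10 genes and for the sum of 8 proximal tubule markers at the right. Blue is sham, red IRI, open control and filled RIPC, the diamond is PMN sham control replicate 2, and the line marks 100%. Gpx3 lies at 3.42% to 23.49%, and Sod2 after IRI lies at 78.78% to 199.39%.

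The second comparison asked what IRI did in TECs, averaged over control and RIPC animals. Gpx1 and Cat fell after IRI, 2.68-fold and 3.03-fold, and no other member passed the test. So 2 of 10 were called by edgeR, both lower, where 1.4% of the 25917 genes tested in TECs were called and 1.15% were lower, and 8 of 10 had an unadjusted p under 0.05, as had 15.0% of all genes. In a fit of only the 6943 genes with at least 10 counts in every TEC library, 683 were called, 525 of them lower. The median log2 difference over the 10 genes was -0.80, against 0.15 over all genes tested. The summed proximal tubule markers were at 6226 to 10496 in sham TECs and at 923 to 5312 after IRI, with 4 of 8 called lower and a median log2 difference of -2.27. Their part in the lower enzyme levels was not tested.

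Gpx1 was at 5820, 5859 and 3369 normalized counts in sham control TECs, 4884, 4965 and 3029 in sham RIPC, 1710 and 2169 in IRI control and 1266, 1281 and 2326 in IRI RIPC. Every IRI library was below every sham library (log2 -1.42 ± 0.28, 5 and 6 libraries, edgeR adjusted p = 0.0252). Cat was at 1556, 1299 and 758 in sham control, 845, 999 and 718 in sham RIPC, 287 and 304 in IRI control and 315, 291 and 589 in IRI RIPC. Here too the groups did not overlap, and the highest IRI library was IRI RIPC replicate 3 (log2 -1.60 ± 0.32, edgeR adjusted p = 0.0273). Both calls lie near the threshold. Gpx1 was lost without sham control 2 (edgeR adjusted p = 0.0677), sham RIPC 1 (0.0876), sham RIPC 2 (0.09) or IRI RIPC 1 (0.0512). Cat was lost without sham control 2 (edgeR adjusted p = 0.0607), sham RIPC 1 (0.0779), 2 (0.09) or 3 (0.0552), IRI control 2 (0.0569) or IRI RIPC 1 (0.0508).

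The mitochondrial Sod2 (chr17:13006846-13040063, plus strand) was the third member without overlap in TECs, as were 4.6% of all genes tested. It was at 537, 797 and 596 normalized counts in sham control, 675, 645 and 461 in sham RIPC, 359 and 360 in IRI control and 233, 191 and 411 in IRI RIPC. The highest IRI library, at 411, was below the lowest sham library, at 461, but the log2 difference of -1.0 ± 0.31 did not pass the test (edgeR adjusted p = 0.154). Of the Sod2 reads over all libraries, 56.1% were assigned to a processed transcript, 22.8% to the leading protein-coding transcript and 19.5% to a retained intron. The share of that protein-coding transcript ran from 0.247% to 52.9% between libraries. Of the 50-base stretches of Sod2, 21.04% also occur in other genes, chiefly Rps6ka2, which had 8 to 3046 reads a library, and AC166110.4, which had at most 4.

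Gpx3 overlapped between the surgeries chiefly through IRI RIPC replicate 3, which at 56046 normalized counts was above 3 of the 6 sham libraries, while IRI control replicate 1 was above 1 of them, sham RIPC replicate 1. The log2 difference of Gpx3 was -0.91 ± 0.30 (edgeR adjusted p = 0.18), and without that library it was -1.24 (edgeR adjusted p = 0.00708). Sod3 was at 193 to 404 in sham TECs and at 32.5 to 85.9 in 4 of the 5 IRI libraries, with IRI RIPC replicate 3 at 315. Its log2 difference was -1.67 ± 0.53 (edgeR adjusted p = 0.163), and without IRI RIPC replicate 3 it was -2.46 (edgeR adjusted p = 0.00281). Without that library 5 members were called, Gpx1, Gpx3, Cat and Sod3 lower and Mt2 higher, and 2.84% of all genes were.

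Gpx4, Sod1 and Prdx5 did not pass the test in TECs and overlapped between the surgeries. Gpx4 was at 856 to 1590 normalized counts after sham and at 525 to 863 after IRI (log2 -0.70 ± 0.27, edgeR adjusted p = 0.252). Sod1 was at 579 to 1288 after sham and at 564 to 936 after IRI (log2 -0.31 ± 0.29, edgeR adjusted p = 0.684). Prdx5 had the smallest difference and was at 1141 to 1548 after sham and at 952 to 1440 after IRI (log2 -0.17 ± 0.24, edgeR adjusted p = 0.832).

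The metallothioneins were the only members with a higher mean in TECs after IRI. Mt1 was at 963, 23.4 and 17.1 normalized counts in sham control, 13.8, 25.6 and 18.1 in sham RIPC, 1105 and 427 in IRI control and 1002, 676 and 283 in IRI RIPC. Mt2 was at 248, 3.26 and 3.46 in sham control, 2.09, 1.17 and 2.65 in sham RIPC, 358 and 133 in IRI control and 385, 159 and 72.6 in IRI RIPC. Every IRI library was above 5 of the 6 sham libraries for both genes, and the sixth, sham control replicate 1, lay within the IRI range.

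With all libraries, the log2 difference in TECs was 3.12 ± 0.84 for Mt1 (8.67-fold, edgeR adjusted p = 0.091) and 4.09 ± 0.97 for Mt2 (17.0-fold, edgeR adjusted p = 0.0546), and neither passed the test. Among 14 alternatives other than leaving out 1 library, Mt1 passed in 6 and Mt2 in 10, DESeq2's Wald test among them (adjusted p = 0.00588 and 0.000524, with 7.98% of all genes called). Without sham control replicate 1 it was 5.11 for Mt1 and 6.39 for Mt2, both with edgeR adjusted p = 0.000605, and 4 members were called, with Gpx1 at -1.39 (0.0398) and Cat at -1.52 (0.0442), where 1.5% of all genes were. Mt1 also passed without IRI control 1 (log2 2.70, edgeR adjusted p = 0.0201) or 2 (3.38, 0.00299). Mt2 passed without IRI control 1 (log2 3.65, edgeR adjusted p = 0.00726) or 2 (4.35, 0.00148) or IRI RIPC 3 (4.32, 0.0325). The same sham library that was high in both metallothioneins carried Havcr1 at 78.9, Lcn2, which encodes the injury marker NGAL, at 50.3 and Krt20 at 15.9, where the other 5 sham libraries had at most 1.02, 0.789 and 1.35. When both TEC libraries that stood apart were left out, 7 members were called, namely Mt1 (5.40, edgeR adjusted p = 4.69e-05) and Mt2 (6.68, 9.39e-05) higher and Gpx1, Gpx3, Cat, Sod2 and Sod3 lower, where 2.96% of all genes were called. Reads of Mt2 may include those of its antisense neighbour Gm45774, with which it shares 45.85% of its 50-base stretches and which had 0 to 395 reads a library, while Mt1 shared none.

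**Figure D3:**
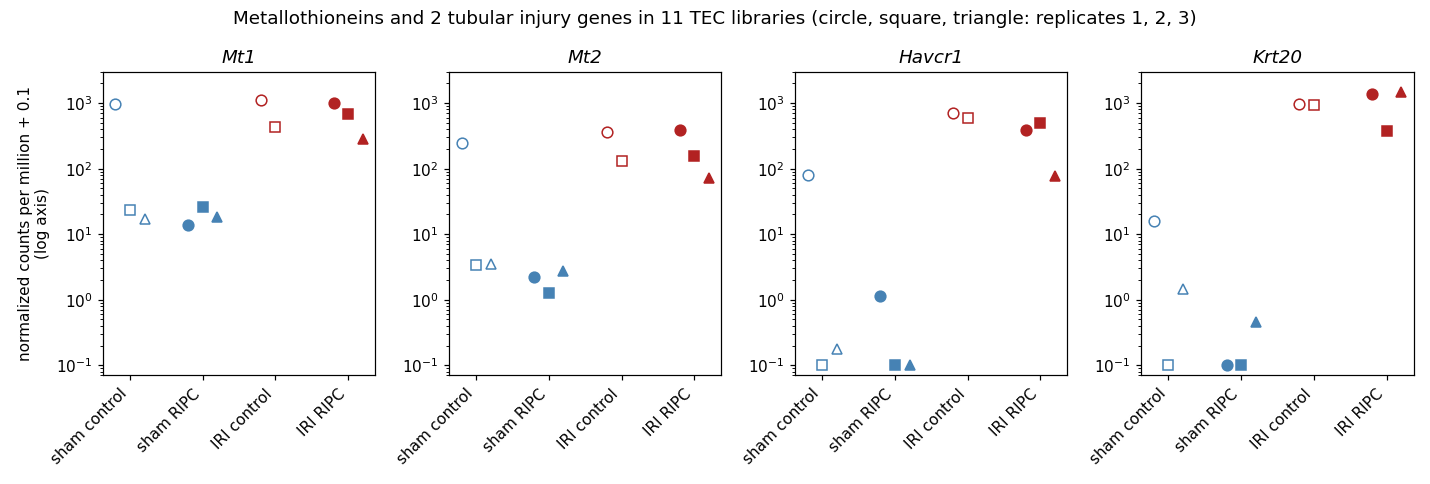
Mt1, Mt2 and the injury genes Havcr1 and Krt20 in the 11 TEC libraries, as normalized counts plus 0.1 on a log axis, by group, with circles, squares and triangles for replicates 1, 2 and 3. TEC sham control replicate 1 (open blue circle) is at 963 for Mt1 and 248 for Mt2, where the other 5 sham libraries are at most 25.6 and 3.46, and it is also the highest sham library for Havcr1 and Krt20.

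**Figure D4:**
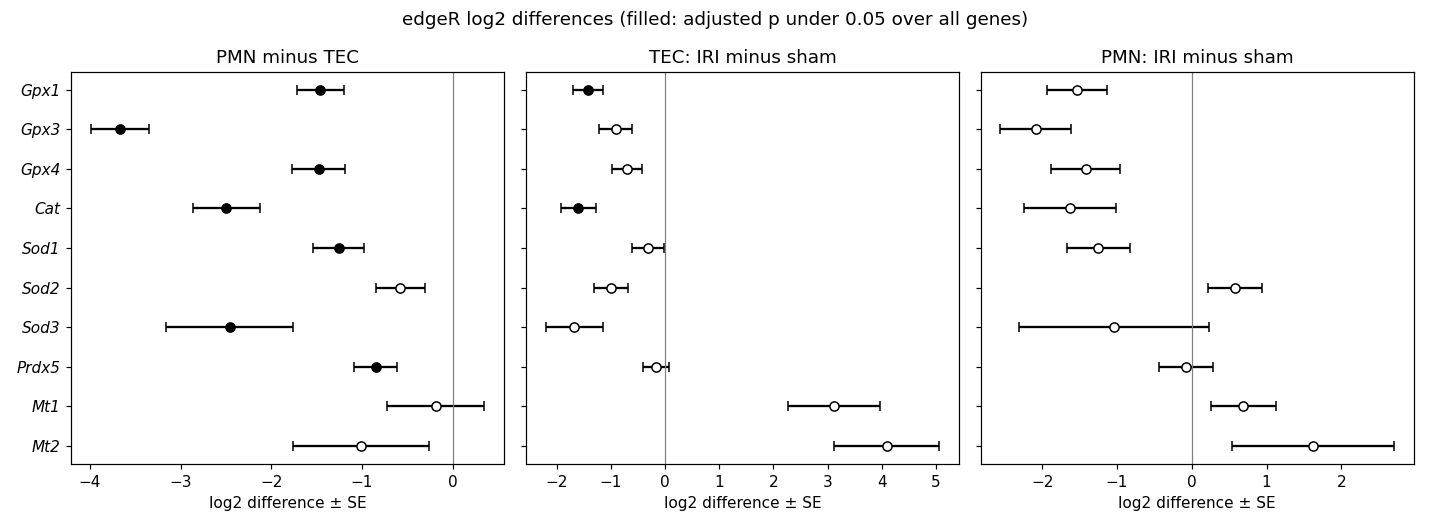
Log2 differences with their standard errors from edgeR for the 10 genes, for PMNs minus TECs over all libraries and for IRI minus sham in TECs and in PMNs. Filled points passed an adjusted p of 0.05 over all genes tested, which holds for 7 genes at the left, for Gpx1 and Cat in the middle and for none at the right.

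The third comparison asked the same of PMNs. None of the 10 genes was called between IRI and sham by edgeR, where 0.416% of the 25002 genes tested in PMNs were and 0.052% were lower, and 5 of 10 had an unadjusted p under 0.05, as had 11.8% of all genes. In a fit of only the 6739 genes with at least 10 counts in every PMN library, 444 were called, 130 of them lower. DESeq2's Wald test called 1 of 10 (Gpx3, with 7.28% of all genes called) and DESeq2 with apeglm called 3 (Gpx1, Gpx3 and Gpx4, with 8.48%). Gpx1 and Gpx3 had every IRI library below every sham library, as 5.5% of all genes had in either direction. Gpx1 was at 820 and 3182 in sham control, 1973, 1770 and 920 in sham RIPC, 633 and 570 in IRI control and 719, 758 and 430 normalized counts in IRI RIPC. Its log2 difference was -1.53 ± 0.40 (edgeR adjusted p = 0.206), and that of Gpx3, whose values are above, was -2.09 ± 0.47 (edgeR adjusted p = 0.147). Without PMN sham control replicate 1 both passed the test (edgeR adjusted p = 0.0203 and 0.00414), and without replicate 2, the library with the most tubular marker RNA, the differences were -0.82 and -1.03 and neither did.

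The other enzymes that remove peroxide did not pass the test in PMNs. The log2 difference was -1.42 ± 0.46 for Gpx4 (edgeR adjusted p = 0.334), -1.63 ± 0.61 for Cat (0.398) and -0.08 ± 0.36 for Prdx5 (1.0). Among the dismutases it was -1.25 ± 0.42 for Sod1 (edgeR adjusted p = 0.35), -1.04 ± 1.27 for Sod3 (0.789) and 0.58 ± 0.36 for Sod2 (0.517). Without PMN sham control replicate 2 the difference was -0.86 for Gpx4, -0.64 for Cat and -0.56 for Sod1. Sod3 and Prdx5 changed sign without that library, to 1.32 and 0.54. Mt1 at 0.69 ± 0.44 (edgeR adjusted p = 0.532) and Mt2 at 1.62 ± 1.08 (0.551) had higher means after IRI. Mt2 was at 42.4 to 50.2 normalized counts in all 5 IRI libraries of PMNs and scattered over 0.0456 (1 read) to 62.1 after sham. Over the 10 genes the median log2 difference was -1.14, against -0.01 over all genes tested. Beside these values, the summed proximal tubule markers were at 330 to 3322 in sham PMNs and at 208 to 325 after IRI (median log2 difference -2.50, none of 8 called), and the summed macrophage and monocyte markers at 2647 to 8757 and at 874 to 1868 (median -1.71, none of 7 called). Their part in the lower levels was not tested.

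Whether IRI acted differently in PMNs and TECs was tested as an interaction of cell type and surgery. None of the 10 genes and none of the 31769 genes tested was called by edgeR (0.0% of genes), and 3 of the 10 had an unadjusted p under 0.05, as had 9.76% of all genes. DESeq2's Wald test and apeglm each called 1, Sod2 (log2 1.67, adjusted p = 0.0162, and 1.49, s value 0.000557), where they called 7.18% and 3.98% of all genes. Sod2 was at 136 and 374 in sham control PMNs, 273, 226 and 181 in sham RIPC, 245 and 351 in IRI control and 361, 349 and 620 normalized counts in IRI RIPC, while its TEC levels had been lower after IRI. PMN levels of Sod2 were therefore 22.05% to 60.51% of the TEC mean after sham and 78.78% to 199.39% after IRI. Reads of Sod2 may include those of Rps6ka2, with which it shares stretches as described above. Rps6ka2 had 267 to 873 reads in sham PMN libraries and 1265 to 3046 after IRI, most in IRI RIPC replicate 3, where Sod2 was also highest. In TECs it had 8 to 805 reads after sham and 353 to 993 after IRI. The part of Rps6ka2 in the Sod2 levels was not tested. The log2 difference between the effects in PMNs and TECs was 1.56 ± 0.55 for Sod2 (edgeR adjusted p = 0.327), -1.20 ± 0.56 for Gpx3 (0.488) and -2.44 ± 1.09 for Mt1 (0.466). Leaving out 1 library moved that of Gpx3 between -1.54 without PMN sham control replicate 1 and -0.10 without PMN sham control replicate 2. That of Mt1 moved between -4.46 without TEC sham control replicate 1 (edgeR adjusted p = 0.0301) and -1.78 without PMN sham control replicate 1 (0.684). PMNs and TECs of this comparison were different cells in different libraries, and labels do not tie them to the same animals.

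RIPC was compared with control within each cell type and surgery. No member was called by edgeR in TECs after sham (0.0% of all genes called) or after IRI (0.00386%), nor in PMNs after sham (0.004%) or after IRI (0.0%). Only Mt1 and Mt2 in sham TECs had an unadjusted p under 0.05, as had 4.53% of all genes there, with log2 differences of -4.13 ± 1.21 and -5.43 ± 1.44, RIPC minus control, and an edgeR adjusted p of 0.708 each. DESeq2's Wald test (adjusted p = 0.0412 and 0.0037) and apeglm (s value 0.00447 and 0.000311) called both, where they called 1.24% and 0.513% of all genes. These differences rested on TEC sham control replicate 1. Without it they were -0.20 for Mt1 (edgeR adjusted p = 1.0) and -0.87 for Mt2 (0.957), since the other 2 control libraries were at 23.4 and 17.1 for Mt1 and at 3.26 and 3.46 for Mt2.

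After IRI, differences between RIPC and control TECs ran from -0.51 for Gpx4 to 0.64 for Sod3 on the log2 scale (edgeR adjusted p 0.82 to 1.0), and no member had an unadjusted p under 0.05. Sod3 was at 85.6 and 85.9 normalized counts in IRI control and at 54.1, 32.5 and 315 in IRI RIPC, so the RIPC libraries lay on both sides of the controls. For 3 members, none of them called, every RIPC library was below every control library, and 16.9% of all genes did not overlap in either direction. These were Gpx4, at 863 and 831 in control and at 525, 554 and 688 in RIPC, Sod1, at 936 and 799 against 564, 632 and 668, and Prdx5, at 1440 and 1276 against 1060, 1029 and 952. In PMNs the differences ran from -2.97 for Mt2 to 0.03 for Cat after sham (edgeR adjusted p 0.705 to 1.0) and from -1.32 for Sod3 to 0.53 for Sod2 after IRI (edgeR adjusted p 1.0 throughout), again with no unadjusted p under 0.05. Without PMN sham control replicate 2, the library with the most tubular marker RNA, the sham differences were -1.49 for Mt1 and -3.47 for Mt2. Those of the other members were then all positive, from 0.39 for Prdx5 to 4.03 for Sod3. The difference of the RIPC effect between IRI and sham was not called for any member in either cell type. With 2 or 3 libraries a group, these comparisons leave wide errors, and a p above the threshold does not show that levels were alike.

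Beyond the 10 genes, 44 other genes of the same pathways were examined as a fixed list, of which 41 were tested over all libraries and in TECs and 39 in PMNs. This list, too, was chosen with earlier results of these data known, so its counts are a description. Between the cell types, 11 were lower in PMNs and 1 was higher, with a median log2 difference of -1.47, where 3.95% of all genes were lower and 2.91% higher, with a median of -0.02. Prdx1, the abundant cytosolic peroxiredoxin, was at 144 to 952 normalized counts in PMNs and at 1178 to 3180 in TECs, without overlap (log2 -2.40 ± 0.27, edgeR adjusted p = 7.45e-06). Of the other peroxiredoxins, 3 of the 4 tested were lower in PMNs, as were 4 of 8 genes of selenium supply and selenoprotein synthesis. That group was listed because Gpx1, Gpx3 and Gpx4 carry selenocysteine at the TGA codon shown. None of the 5 other glutathione peroxidases was called. The 1 higher gene was Slc7a11, the cystine carrier of glutathione synthesis.

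In TECs after IRI, 3 genes of the list were higher and 2 lower, with a median log2 difference of -0.55, where 0.255% of all genes were higher and 1.15% lower, with a median of 0.15. Sephs2, which makes the selenium donor of selenocysteine, was at 534 to 737 normalized counts after sham and fell to a range of 92.5 to 281 after IRI (log2 -1.84 ± 0.32, edgeR adjusted p = 0.0127). Ccs, the copper chaperone of Sod1, was at 183 to 260 after sham and fell to a range of 50.2 to 77.9 (log2 -1.85 ± 0.35, edgeR adjusted p = 0.0202), while Sod1 itself did not pass the test. Glrx, a glutaredoxin that reduces glutathionylated proteins, was at 38.0 to 243 after sham and rose to a range of 311 to 535 (log2 1.98 ± 0.41, edgeR adjusted p = 0.0321). Chac1, which degrades glutathione, had 0 reads in all 6 sham TEC libraries, where 3 reads would be 0.0748 to 0.133 normalized counts, and was at 7.87 to 39.8 in the 5 IRI libraries (edgeR adjusted p = 0.0076). In PMNs after IRI 1 gene of the list was called, with a median of -0.45 over the list, where 0.416% of all genes were called, 0.364% higher, with a median of -0.01. This was Slc7a11, which was at 50.0 to 98.2 normalized counts after sham and rose to a range of 380 to 742 (log2 2.96 ± 0.29, edgeR adjusted p = 0.00877). No gene of the list was called in the RIPC comparisons or the interactions.

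Across the 8 group means of log2(CPM + 1), Gpx1, Gpx3, Gpx4, Cat and Sod1 resembled each other, with Pearson's r between 0.92 and 0.99. Mt1 and Mt2 had r = 0.90 with each other, and Mt1 had r between -0.57 and -0.09 with the other 8. The genes of all those tested whose pattern was most like a member's were Them7 for Gpx1 (r = 0.995), St13 and Mrps18a for Gpx3 (0.9972 and 0.9921) and Sord and Ak3 for Cat (0.9952 and 0.9948). For Gpx4 they were Ndufb8 and Mettl26 (0.9953 and 0.9935), and for Sod1 Nme2 and Cyb5a (0.9975 and 0.9968). Sod2 had lower values, with Stx18 and Kbtbd4 at 0.973 and 0.9721, as did Mt1, with Gm10076 and Gm28358 at 0.9519 and 0.9516. For Sod3 they were Ttll1 and Hsd17b4 (0.994 and 0.9886), for Prdx5 Mrpl40 and C130074G19Rik (0.9853 and 0.9831) and for Mt2 Gm47423 and Rptn (0.9735 and 0.957). The 8 means share libraries, depth and scaling, and the cell types differ in many genes, so these values are a description.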

How the data were processed

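The authors trimmed single-end reads with Trim Galore 0.6.4, quantified them with Salmon 1.0.0 against Gencode vM23 and deposited the estimated counts of each transcript without normalization, with effective lengths and TPM. Per the labels, cDNA was primed at the poly(A) tail. The authors' TPM column was not used. Here, estimated counts were summed for each gene and library, over transcripts and both files, and then rounded. Transcripts were matched to genes with Gencode M21 on GRCm38, and 884 of 140748 had no match (0.139% to 0.255% of reads). The 2 files of a library agreed more closely than counting noise allows (median chi-square 0.016 to 0.067, against 0.455), so they are not independent reads and their sum overstates depth. Sex-chromosome and mitochondrial genes were left out, as in the study. Intervals given as ± are standard errors between libraries, and limits at 3 reads cover counting error only.

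Groups were taken from the labels, which give no batch. Genes kept by edgeR's filter were fitted with TMM factors and the quasi-likelihood test (edgeR 4.0.16, limma 3.58.1, R 4.3.3), with Benjamini-Hochberg adjustment over all genes of the fit and a threshold of 0.05. Comparisons within a cell type used that cell type's libraries, and comparisons between cell types all 21. DESeq2 1.42.0 and apeglm 1.24.0, the study's test, were run as alternatives, the latter with its s value under 0.01. Other alternatives were DESeq2 size factors, library size alone, no filter or at least 10 counts in every library, either file alone, a transcript-length offset, all chromosomes, robust dispersion, a replicate block, a fit over all 21 libraries and leaving out libraries. Library size alone, leaving out both TEC libraries that stood apart and leaving out the PMN library with most tubular RNA were chosen after seeing the data. On simulated data, 200 genes drawn at random from all those tested were changed 8-fold, without matching to the members in level or spread. There the test missed most of the changed genes in every comparison simulated. It missed all of them in PMNs after IRI and in the interaction of cell type and surgery. Its calls in TECs after IRI held more false ones than the threshold allows. A gene that was not called is therefore not shown to be unchanged. The members and lists were chosen with earlier results of these data known. All 10 members are named. Of the other pathway genes, a comparison names up to 3 in each direction with the smallest adjusted p under 0.05 and no overlap between libraries. Others named were chosen after their values were seen. For each member, up to 2 genes most like it across groups are named, and 1 of these is not reported here. Sequences are from Gencode M21, and the promoter window is from RefSeq.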

Additional observations from a re-analysis of the deposited data

How the results depend on the processing

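Over the results tallied and their alternatives, 897 of 1003 kept their direction and side of the threshold, 35 lost and 57 gained a call, and 14 changed sign. The cause was not tested. Levels of members with another pseudocount were part of the tally, and all of them entered as kept, although a level has no threshold. The counts of members called were not part of the 1003 and are given below. Single members were tallied between cell types and between IRI and sham averaged over control and RIPC. Others tallied were Gpx3, Sod2 and Mt1 in the interaction of cell type and surgery, and Mt1 and Mt2 under RIPC in sham TECs. The count of members called between PMNs and TECs (7) stayed between 5 and 8. That in TECs between IRI and sham (2) was 6 with no filter, 4 at 10 counts or more, 4 with library size alone, 7 without both TEC libraries that stood apart, 0 in the fit over all 21 libraries, 4 by DESeq2's Wald test, 8 by apeglm, and 0 to 5 leaving out 1 library. The count in PMNs (0) was 2 with no filter, 1 at 10 counts or more, 1 over all 21 libraries, 1 by the Wald test, 3 by apeglm, and 0 to 2 leaving out 1 library. For the interaction of cell type and surgery (0) it was 1 with no filter (Gpx3, adjusted p = 0.0176), without both TEC libraries, by the Wald test and by apeglm, and 0 to 1 leaving out 1 library. In control animals alone, the count for IRI in TECs (0) was 3 with no filter, 2 without both TEC libraries, 1 by the Wald test, 2 by apeglm and 0 to 2 leaving out 1 library, and in PMNs (0) it was 1 with no filter and 0 to 1 leaving out 1 library. For RIPC after sham in TECs (0) it was 2 with no filter, by the Wald test and by apeglm, and for the RIPC effect between surgeries in TECs 2 with no filter. Where a group is left with 1 library, that library is assumed to vary like the others.

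Among the results tallied, signs changed as follows. Between cell types Mt1 became 0.73 and Mt2 0.06 without both TEC libraries, and 0.82 and 0.16 without TEC sham control replicate 1, with ranges of -0.53 to 0.82 and -1.60 to 0.16 leaving out 1 library. Prdx5 in TECs after IRI became 0.00 at 10 counts or more and 0.01 with the length offset. In PMNs after IRI Prdx5 became 0.01 at 10 counts or more and ranged from -0.38 to 0.54 leaving out 1 library, and Sod3 ranged from -1.64 to 1.32, the latter without sham control replicate 2. Mt1 under RIPC in sham TECs became 0.02 without both TEC libraries. Outside the tally more signs changed, among them those given above for RIPC in sham PMNs without PMN sham control replicate 2.

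Deviations from group means correlated at -0.023 to 0.029 between same-numbered libraries in PMNs and at -0.091 to 0.131 in TECs. Between other libraries they correlated at -0.029 to 0.028 and -0.111 to 0.068. In groups of 2 libraries the deviations mirror each other, and PMN libraries were not set against TEC libraries. These values therefore cannot tell whether libraries were paired. With the replicate block 4 members were called in TECs after IRI, Mt1 (3.14, edgeR adjusted p = 0.0231) and Mt2 (4.31, 0.0107) among them.

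Counts over all genes moved too. In TECs after IRI, 363 genes were called, against 1289 with no filter, 37 over all 21 libraries, 2067 by the Wald test and 2524 by apeglm. In PMNs they were 104, against 971, 141, 1821 and 2120, and 23 with the block. For the interaction of cell type and surgery they were 0, against 722 with no filter, 123 at 10 counts or more, 2280 by the Wald test and 1265 by apeglm, and between the cell types they were 2182, against 5114 and 5220 by the latter tests. Library size alone moved the median over all genes from -0.02 to -0.13 between cell types and from -0.01 to -0.24 in PMNs after IRI, and DESeq2 size factors moved it from 0.15 to 0.28 in TECs after IRI. Mt2 and Sod3 were not tested at 10 counts or more over all libraries and in PMNs. Groups held 2 or 3 libraries, and the levels of Sod3 at 2 reads and of Mt2 at 1 read lie at the limit that depth sets.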
